A study of Mus musculus with 21 samples.

Results

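Interferon beta, the chains of its receptor, the chains of the interferon gamma receptor and the kinases bound to them were followed across 21 RNA sequencing libraries of mouse bone marrow-derived macrophages. The 8 genes were Ifnb1, Ifnar1, Ifnar2, Ifngr1, Ifngr2, Jak1, Jak2 and Tyk2, of 25067 genes with a transcript in the count table. They were taken by name, though with earlier results of these data known, and each was represented by its RefSeq transcript with the highest mean count. All 8 passed the filter on low counts and were among the 12529 genes tested. The groups were macrophages labelled Nur77-KO (labelled KO below, 3 libraries at each time) and WT macrophages (4 libraries at each time). Nur77 is a nuclear receptor encoded by Nr4a1. All mice were male C57Bl6/J aged 6 to 12 weeks. Marrow cells became macrophages over 7 days with L929-conditioned medium, a source of macrophage colony-stimulating factor. Lipopolysaccharide (LPS), the endotoxin of Gram-negative bacteria, was then added at 100 ng/ml for 0, 4 or 18 h. Labelled-KO libraries carry "cre" as their genotype tag, and the labels do not state whether the deletion is germline or restricted to some cells, or which part of the gene it removes.

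Type I interferons, of which interferon beta is one, act through a receptor made of Ifnar1 and Ifnar2, with the kinases Tyk2 bound to Ifnar1 and Jak1 bound to Ifnar2. Interferon gamma acts through Ifngr1 and Ifngr2, with Jak1 bound to Ifngr1 and Jak2 bound to Ifngr2. The kinases phosphorylate STAT proteins, which enter the nucleus and switch on interferon-stimulated genes. LPS is sensed by Toll-like receptor 4. In macrophages, Toll-like receptor 4 signals through the adaptors Ticam2 and Ticam1 to Irf3, which induces Ifnb1, and the secreted interferon beta acts back on the same cells.

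Each library held 12301504 to 29650081 counts in named genes. The targeted gene did not follow the label at every time. Nr4a1 averaged 12.3 ± 0.114 CPM (counts scaled to library size) in labelled-KO libraries and 14.7 ± 1.27 CPM in WT libraries at 0 h (SD, n = 3 and 4), a log2 fold change of -0.25 with an adjusted p of 0.75 by edgeR. It was lower in labelled KO at 4 h (0.871 ± 0.340 against 3.11 ± 2.78 CPM, adjusted p = 0.04) and higher at 18 h (2.85 ± 0.698 against 1.10 ± 0.159 CPM, adjusted p = 0.023, edgeR). Since the part of the gene that is removed is not stated, these counts cannot check the label. Macrophage markers (Adgre1, Csf1r, Cd68 and 7 others) were all detected in every group and summed to 13197 to 25472 CPM per library. WT number 1 stood apart from the other WT libraries at 0 h and 4 h. Its counts differed from theirs by a chi-square per degree of freedom of 28.51 to 33.28 at 0 h and 43.65 to 68.97 at 4 h, against 8.1 to 13.81 and 6.99 to 13.15 among the other WT libraries. Member results that it changed are given below with and without it. Whether a library number stands for one mouse is not said in the labels, so every p-value here rests on the spread between libraries, which may be technical.

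The genes of 3 of the 4 receptor chains lie in one stretch of chromosome 16. On GRCm38 Ifnar2 was annotated at chr16:91372783-91405589 with 9 exons and 513 codons, Ifnar1 at chr16:91485032-91510523 with 11 exons and 590 codons, and Ifngr2 at chr16:91547059-91564007 with 7 exons and 332 codons, all on the plus strand. Il10rb, a chain of the interleukin-10 receptor, lies between Ifnar2 and Ifnar1. Ifngr1 stood apart on chromosome 10 (chr10:19591949-19610229, plus strand, 7 exons, 477 codons). Ifnb1 is a gene of 1 exon and 182 codons (chr4:88522025-88522794, minus strand). Jak1 (chr4:101151974-101265282, minus strand, 1153 codons), Jak2 (chr19:29251803-29313095, plus strand, 1132 codons) and Tyk2 (chr9:21104068-21131393, minus strand, 1207 codons) had 25 exons each. Ifnar2, Jak1 and Tyk2 overlap other annotated genes (Gm21970; Raver2, Gm24468 and Gm12785; the antisense 1700084C06Rik). The sources used here do not give how reads were counted or whether strand was used, and the values of these 3 genes are less certain for it.

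Promoter sequence is shown for Ifnb1 because its promoter is the best known switch of the pathway, where IRF factors, NF-kB and Atf2/Jun bind side by side with help from Hmga1. The stretch runs from 175 to 61 bases before the start in the RefSeq promoter table (GRCm38.p6, chr4:88522855-88522969, minus strand), and capitals mark matches to the motifs searched.
Ifnb1 promoter: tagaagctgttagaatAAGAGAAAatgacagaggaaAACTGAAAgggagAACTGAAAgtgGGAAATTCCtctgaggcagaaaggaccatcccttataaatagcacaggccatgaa
The motifs were AANNGAAA (IRF half-site), GAAANNGAA (interferon-stimulated response element), TTCNNNGAA (gamma-activated site) and GGAANTTCC (kappa B site), read on both strands in windows of 300 bases, 250 before to 50 after each start. Matches to AANNGAAA can overlap matches to GAAANNGAA. The Ifnb1 window held 3 matches to AANNGAAA, which 23.9% of all 32851 promoters hold at least once, and 1 match to GGAANTTCC, which 0.928% hold. A match to TTCNNNGAA, held by 8.30% of promoters, was found in the windows of Ifnar1 (TTCACGGAA, across the start, from 5 bases before it) and Ifnar2 (TTCCTGGAA, from 214 bases before the start). None of the 4 motifs was found in the windows of Ifngr1, Ifngr2, Jak1, Jak2 or Tyk2, and GAAANNGAA, held by 8.56% of promoters, was found in no member. Such matches describe letters only.

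Ifnar2 has a long transcript (NM_010509, 513 codons), the one counted here, and a short one (NM_001110498, 248 codons). Mouse Ifnar2 is known as a membrane chain and as a soluble form that lacks the membrane anchor, and the coding sequences of these transcripts part after 709 shared bases. The sequences below show the last 12 shared bases in lower case and the first 18 of each form's own bases in capitals (GENCODE M21, GRCm38 chromosome 16, plus strand). The long form's own part begins at position 91399218 and that of the short form at 91393914, directly after the last shared base.
NM_010509: gccaggaatcagGATTATCAGAATCTGCTA
NM_001110498: gccaggaatcagGTATGGCTAGGTTTTTAA
The short transcript was listed with 68.0% of the mean count of the long one. Its count was 63.021 to 71.66% of the long one's in labelled-KO libraries and 65.549 to 71.591% in WT libraries over the 3 times. Transcripts of a gene were credited with shared reads (the Ifnar2 transcript NM_001347258 held 97.6% of the count of the one used), so these percentages are not shares of the forms.

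Before LPS, Ifnb1 was close to absent. Single counts were found in 1 of 3 labelled-KO libraries and in 3 of 4 WT libraries at 0 h, at or under the floor of 3 counts in both groups, so no fold between genotypes is given there. The labelled-KO libraries held 13.4, 14.9 and 19.9 CPM of Ifnb1 at 4 h, and 10.8, 8.14 and 7.33 CPM at 18 h. The WT libraries held 23.8, 5.44, 7.95 and 10.0 CPM at 4 h, and 4.64, 3.68, 4.99 and 6.17 CPM at 18 h. One WT library at 4 h (number 1) was above every other library, and the other 3 WT libraries at 4 h were below every labelled-KO library. At 18 h all 3 labelled-KO libraries were above all 4 WT libraries. Every LPS library was above every 0 h library of its genotype.

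The counts of Ifnb1 give the size of its LPS response only within wide limits, since the 0 h groups held 1 count (labelled KO) and 3 counts (WT). At 4 h against 0 h the ratio of depth-scaled counts was 1109 in labelled KO (95% counting interval 198 to 43890) and 458 in WT (156 to 2225). For 18 h against 0 h the ratio was 573 in labelled KO (102 to 22697) and 173 in WT (58.6 to 841). These intervals cover counting error only. Ifnb1 was lower at 18 h than at 4 h in both genotypes, with a log2 fold change of -0.89 ± 0.35 in labelled KO (SE, edgeR adjusted p = 0.033) and -1.31 ± 0.31 in WT (adjusted p = 8.5e-04). The labelled-KO value lost its call without labelled-KO number 4 at 4 h (-0.69, adjusted p = 0.14), or number 3 (-0.84, adjusted p = 0.082) or number 4 (-0.77, adjusted p = 0.11) at 18 h. It was also lost with upper-quartile scaling (-0.78, adjusted p = 0.058) and without the library of each group that was richest in stromal marker RNA (-0.58, adjusted p = 0.23). Without WT number 1 at 4 h the WT value was -0.72 (adjusted p = 0.0069).

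**Figure D1:**
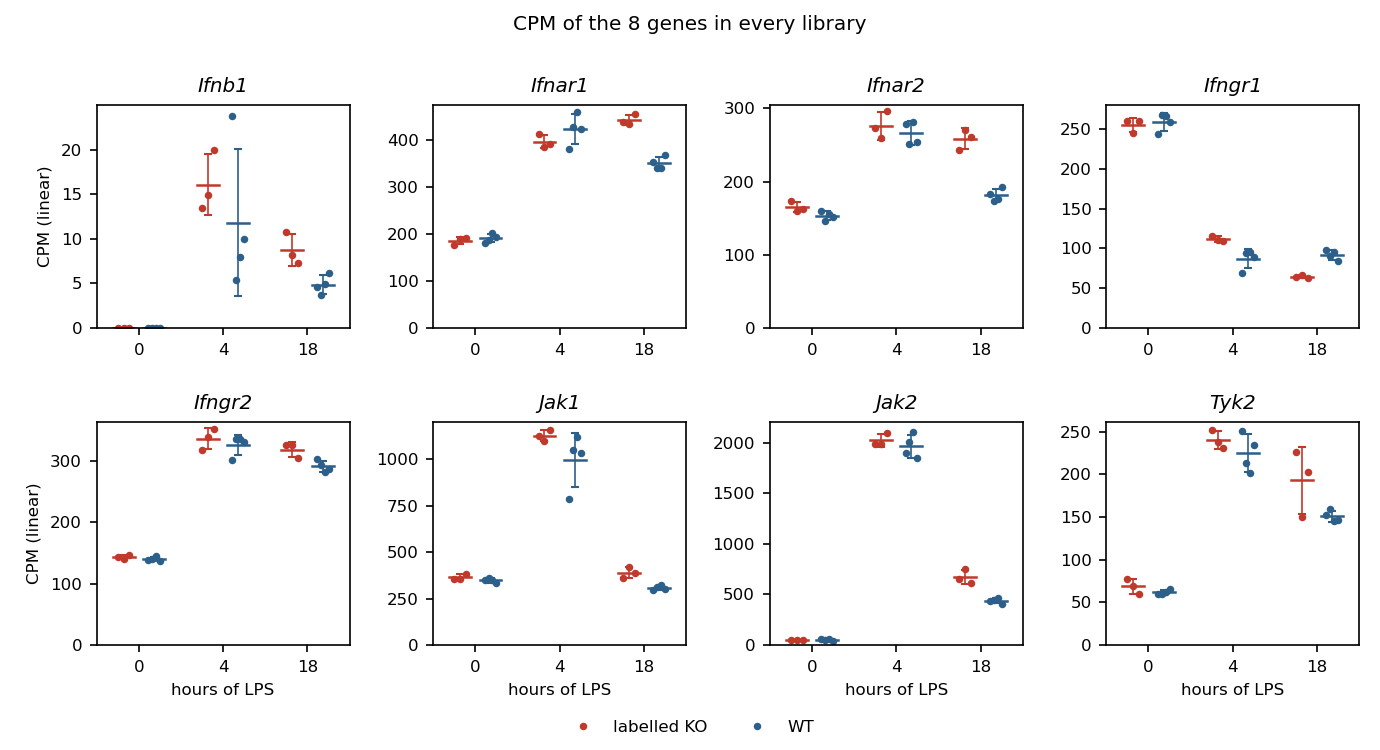
Level of each of the 8 genes (vertical axis, CPM on a linear scale from 0, different for each gene) in every library at 0, 4 and 18 h of LPS (horizontal axis). Points are libraries, short horizontal lines are group means and vertical bars are the SD (n = 3 labelled KO in red, n = 4 WT in blue). Ifngr1 is the one gene with higher points at 0 h than at both later times in both genotypes (WT points of Jak1 are also lower at 18 h than at 0 h), and at 18 h the points of labelled KO and WT overlap for Tyk2 alone.

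With 4 h of LPS, 7 of the 8 genes rose and Ifngr1 fell, in both genotypes (edgeR, Benjamini-Hochberg adjusted p under 0.05). Among all genes tested, 75.0% were called in labelled KO (33.5% higher and 41.5% lower) and 78.1% in WT (35.1% higher and 43.0% lower), so being called sets no gene apart. Over all genes the median change was -0.14 in labelled KO and -0.17 in WT (log2, with the trimmed-mean or TMM scaling used), and -0.47 and -0.52 with upper-quartile scaling, where the directions of the 8 genes were the same. Of the genes called, 44.7% were higher at 4 h in labelled KO and 45.0% in WT, and 33.4% and 32.6% with upper-quartile scaling.

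The chains of the type I receptor rose together. Ifnar1 stood at 178, 190 and 191 CPM at 0 h, 413, 386 and 393 CPM at 4 h and 440, 435 and 455 CPM at 18 h in labelled KO. WT libraries were at 181, 188, 202 and 195 CPM at 0 h, 382, 429, 461 and 423 CPM at 4 h and 353, 342, 340 and 368 CPM at 18 h. The genotypes overlapped at 0 h and 4 h and did not overlap at 18 h. Ifnar1 at 4 h was 2.13-fold its 0 h level in labelled KO (log2 1.09 ± 0.08 SE, edgeR adjusted p = 1.8e-11) and 2.21-fold in WT (log2 1.14 ± 0.06, adjusted p = 5.3e-13). From 4 h to 18 h the genotypes parted. The change was 0.16 ± 0.07 in labelled KO (log2, adjusted p = 0.068) and passed as higher with upper-quartile scaling (0.27, adjusted p = 0.0034), with summed transcripts (0.16, adjusted p = 0.046) and on the compared groups alone (0.19, adjusted p = 0.039). In WT it was -0.27 ± 0.06 (adjusted p = 7.0e-04, and -0.11 with adjusted p = 0.12 under upper-quartile scaling).

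Ifnar2, the high-affinity chain of the type I receptor, stood at 173, 160 and 163 CPM at 0 h, 273, 259 and 297 CPM at 4 h and 243, 271 and 261 CPM at 18 h in labelled KO. In WT it stood at 160, 146, 156 and 152 CPM at 0 h, 278, 251, 282 and 254 CPM at 4 h and 183, 174, 176 and 192 CPM at 18 h. The 18 h values of WT thus lay between those of 0 h and 4 h, while in labelled KO the 18 h and 4 h values overlapped. The log2 fold change at 18 h against 0 h was 0.64 ± 0.08 in labelled KO (SE, edgeR adjusted p = 1.2e-07) and 0.24 ± 0.07 in WT (adjusted p = 0.0026). The WT call was lost with upper-quartile scaling (0.06, adjusted p = 0.4). Between 4 h and 18 h it was -0.10 ± 0.08 in labelled KO (adjusted p = 0.27, and 0.014 with upper-quartile scaling) and -0.56 ± 0.07 in WT (adjusted p = 1.3e-07).

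Ifngr1 was the single member called lower than before LPS at both 4 h and 18 h. This chain binds interferon gamma itself. It stood at 260, 245 and 260 CPM at 0 h, 116, 111 and 109 CPM at 4 h and 63.6, 67.0 and 63.2 CPM at 18 h in labelled KO. In WT it stood at 243, 267, 266 and 258 CPM at 0 h, 69.8, 93.9, 95.8 and 88.7 CPM at 4 h and 98.2, 91.1, 95.0 and 83.8 CPM at 18 h. Labelled KO was above WT in every library at 4 h and below WT in every library at 18 h. At 4 h against 0 h Ifngr1 was at 0.438 of its earlier level in labelled KO (log2 -1.19 ± 0.09 SE, edgeR adjusted p = 1.6e-10) and at 0.336 in WT (log2 -1.57 ± 0.08, adjusted p = 9.5e-14). From 4 h to 18 h it fell further in labelled KO (-0.79 ± 0.09, adjusted p = 2.1e-07), while in WT the change was 0.08 ± 0.08 (adjusted p = 0.37), -0.012 without WT number 1 at 4 h and 0.24 with upper-quartile scaling (adjusted p = 0.011).

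Ifngr2, the partner chain that brings in Jak2, moved the other way from Ifngr1. It stood at 143, 141 and 147 CPM at 0 h, 319, 339 and 352 CPM at 4 h and 326, 326 and 305 CPM at 18 h in labelled KO. WT libraries had 139, 140, 145 and 137 CPM at 0 h, 302, 336, 336 and 332 CPM at 4 h and 303, 294, 283 and 287 CPM at 18 h. The 4 h and 18 h libraries were all above the 0 h libraries, by 2.34-fold at 4 h in labelled KO and 2.32-fold in WT. Within labelled-KO libraries the log2 ratio of Ifngr1 to Ifngr2 (CPM) was 0.83 ± 0.03 at 0 h, -1.59 ± 0.12 at 4 h and -2.30 ± 0.05 at 18 h (SD, n = 3). WT libraries were at 0.88 ± 0.05, -1.92 ± 0.14 and -1.67 ± 0.09 at these times (SD, n = 4). The gap between LPS and 0 h libraries was many times the spread between libraries. By exact two-sided permutation tests the WT changes had p = 0.0286, the smallest that 4 against 4 allows, and p = 0.100 after adjustment over 14 ratio tests. With 3 against 3 in labelled KO, the exact test cannot go below p = 0.100.

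The log2 ratio of Ifnar1 to Ifnar2 changed less. In labelled KO it was 0.17 ± 0.11 at 0 h, 0.53 ± 0.11 at 4 h and 0.78 ± 0.09 at 18 h (SD, n = 3). WT libraries were at 0.32 ± 0.10, 0.67 ± 0.14 and 0.95 ± 0.01 (SD, n = 4). No ratio test, in either receptor, passed an adjusted p of 0.05. With groups this small, adjustment over 14 tests could not bring any of them under 0.05, so this does not show that the ratios stayed the same. At 18 h the genotypes had p = 0.0571 for both receptors by the exact test, the smallest that 3 against 4 allows (adjusted p = 0.114).

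Among the kinases Jak2 moved most. Jak2 stood at 48.6, 48.5 and 54.0 CPM at 0 h, 1982, 1987 and 2095 CPM at 4 h and 649, 746 and 615 CPM at 18 h in labelled KO. In WT it stood at 58.6, 48.4, 55.2 and 43.2 CPM at 0 h, 1897, 2007, 2101 and 1850 CPM at 4 h and 437, 442, 465 and 405 CPM at 18 h. The 3 times did not overlap in either genotype, and the genotypes overlapped at 0 h and 4 h but not at 18 h. At 4 h against 0 h Jak2 rose 40.1-fold in labelled KO (log2 5.33 ± 0.12 SE, edgeR adjusted p = 4.7e-19) and 38.2-fold in WT (log2 5.26 ± 0.11, adjusted p = 3.2e-20). At 18 h it was 13.3-fold above 0 h in labelled KO and 8.51-fold above it in WT.

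Jak1, which serves both receptors, rose at 4 h and at 18 h was far below that level. It stood at 353, 358 and 385 CPM at 0 h, 1127, 1100 and 1159 CPM at 4 h and 363, 419 and 387 CPM at 18 h in labelled KO. The WT values were 349, 361, 351 and 332 CPM at 0 h, 784, 1051, 1122 and 1032 CPM at 4 h and 294, 312, 322 and 300 CPM at 18 h. WT number 1 was the lowest library at 4 h. The 4 h rise was 3.09-fold in labelled KO (log2 1.63 ± 0.10 SE, edgeR adjusted p = 3.7e-12) and 2.86-fold in WT (log2 1.52 ± 0.09, adjusted p = 7.4e-13). Its log2 fold change at 18 h against 0 h was 0.09 ± 0.10 in labelled KO (adjusted p = 0.4, and -0.13 with upper-quartile scaling) and -0.18 ± 0.09 in WT (adjusted p = 0.066, -0.36 with adjusted p = 7.6e-04 under upper-quartile scaling, and -0.18 with adjusted p = 0.025 on the compared groups alone). The WT libraries at 18 h were all below those at 0 h.

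Tyk2, the kinase of Ifnar1, stood at 77.0, 69.4 and 59.5 CPM at 0 h, 252, 238 and 231 CPM at 4 h and 226, 150 and 203 CPM at 18 h in labelled KO. In WT it stood at 59.7, 60.1, 61.7 and 65.9 CPM at 0 h, 251, 213, 202 and 234 CPM at 4 h and 152, 160, 145 and 146 CPM at 18 h. The labelled-KO libraries at 18 h were spread widely and their lowest, number 3, lay within the WT range. At 4 h against 0 h Tyk2 rose 3.50-fold in labelled KO (log2 1.81 ± 0.12 SE, edgeR adjusted p = 1.1e-11) and 3.64-fold in WT (log2 1.87 ± 0.10, adjusted p = 4.1e-13).

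**Figure D2:**
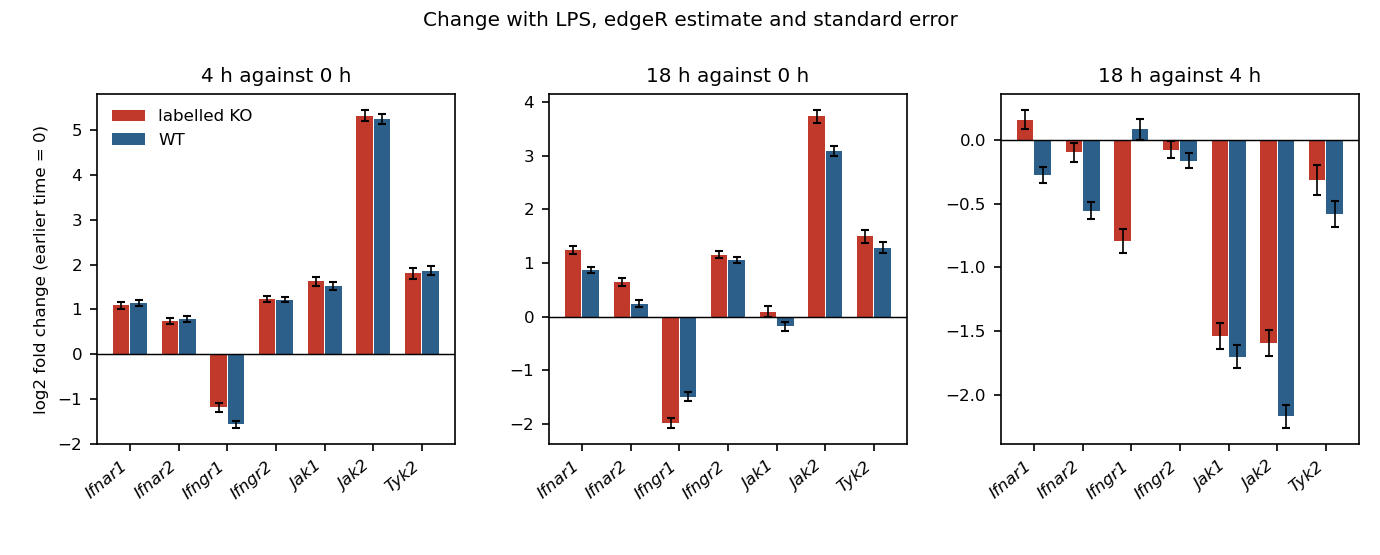
Change with LPS of the 7 genes other than Ifnb1 in labelled KO (red, left bar) and WT (blue, right bar), as the edgeR log2 fold change (vertical axis, later over earlier time) with its standard error, for 4 h against 0 h, 18 h against 0 h and 18 h against 4 h. Vertical scales differ between panels. Ifngr1 is the one gene below 0 at 4 h and at 18 h against 0 h in both genotypes, and at 18 h against 4 h the bars of Ifnar1 and Ifngr1 point to opposite sides of 0 in the 2 genotypes.

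At 18 h against 0 h, 7 of the 8 genes were called in each genotype, 6 higher and Ifngr1 lower (edgeR), against 73.0% of all genes in labelled KO (34.5% higher, 38.5% lower) and 71.1% in WT (34.8% higher, 36.3% lower). In WT 48.9% of the called genes were higher at 18 h, and 38.6% with upper-quartile scaling. The gene not called was Jak1 in both. The members called at 18 h against 4 h were all lower at 18 h, although with upper-quartile scaling Ifnar1 in labelled KO (0.27, adjusted p = 0.0034) and Ifngr1 in WT (0.24, adjusted p = 0.011) were called higher. They were 5 of 8 in labelled KO, where 65.4% of all genes were called and 32.1% were called lower, and 7 of 8 in WT, where 71.7% were called and 34.5% were called lower. In labelled KO these were Ifnb1, Ifngr1, Jak1 (-1.53 ± 0.10, log2), Jak2 (-1.59 ± 0.10) and Tyk2 (-0.31 ± 0.12, adjusted p = 0.023). The Tyk2 call was lost without labelled-KO number 3 at 18 h (-0.16, adjusted p = 0.19) or number 2 at 4 h (-0.28, adjusted p = 0.078), with upper-quartile scaling (-0.20, adjusted p = 0.15) and on the compared groups alone (-0.28, adjusted p = 0.094). In WT they were all but Ifngr1, with Jak2 (-2.17 ± 0.09) and Jak1 (-1.70 ± 0.09) the largest falls and Ifngr2 the smallest (-0.16 ± 0.06, adjusted p = 0.015, -0.0019 with adjusted p = 0.98 under upper-quartile scaling, adjusted p = 0.063 with no filter on low counts and 0.15 without the libraries richest in stromal marker RNA).

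Per length of transcript, the order of the genes changed with LPS. At 0 h Ifngr1 was highest, at 121 ± 3.90 CPM per kb in labelled KO and 122 ± 5.27 in WT (SD, n = 3 and 4), followed in both by Jak1, Ifnar2, Ifnar1, Ifngr2, Tyk2, Jak2 and Ifnb1. Neighbours in this order did not overlap, except Ifnar2 and Ifnar1 in WT. At 4 h Jak2 was highest, at 402 ± 12.7 CPM per kb in labelled KO and 390 ± 22.4 in WT, then Jak1 at 230 ± 5.99 and 203 ± 30.0, then Ifnar1 at 102 ± 3.54 and 108 ± 8.35. Ifngr1 was by then at 52.9 ± 1.84 CPM per kb in labelled KO and 41.2 ± 5.62 in WT, overlapping Tyk2 in both. At 18 h Jak2 led in labelled KO (133 ± 13.4 CPM per kb, with Ifnar1 at 113 ± 2.75), while in WT Ifnar1 (89.7 ± 3.26) and Jak2 (87.0 ± 4.96) overlapped. Ifnb1 was lowest at every time, at 21.4 ± 4.54 CPM per kb in labelled KO and 15.7 ± 10.9 in WT at 4 h.

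Between genotypes, no member was called at 0 h (edgeR; 3.98% of all genes were called). Unadjusted, 0 of the 8 had p under 0.05 there, and DESeq2 and limma-voom also called 0. The log2 fold changes of the 7 genes other than Ifnb1 lay between -0.04 and 0.15. At 4 h one member was called, Ifngr1, at 112 ± 3.88 CPM in labelled KO and 87.1 ± 11.9 CPM in WT (log2 0.36 ± 0.09 SE, adjusted p = 0.017); 5.56% of all genes were called at this time, and 2.87% were called higher. That call was lost without labelled-KO number 2 (0.33, adjusted p = 0.074) or number 4 (0.38, adjusted p = 0.054), and on the 4 h libraries alone (0.37, adjusted p = 0.11). For Ifnb1 at 4 h the difference was 0.43 ± 0.32 (adjusted p = 0.49). Without WT number 1 it was 1.02 with an adjusted p of 0.01, so 2 members passed.

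At 18 h, 6 of the 8 members were called between genotypes (edgeR). Among all genes tested, 32.2% were called. Higher in labelled KO were Ifnar1, Ifnar2, Jak1, Jak2 and Tyk2, and Ifngr1 was lower. Ifnar2 averaged 258 ± 14.1 CPM in labelled KO and 181 ± 8.17 CPM in WT (log2 0.51 ± 0.07, adjusted p = 1.6e-05), and Ifnar1 averaged 443 ± 10.8 and 351 ± 12.7 CPM (log2 0.34 ± 0.07, adjusted p = 8.9e-04). Ifngr1 averaged 64.6 ± 2.11 CPM in labelled KO and 92.0 ± 6.19 CPM in WT (log2 -0.51 ± 0.09, adjusted p = 2.1e-04). Thus the chains of the type I receptor were higher in labelled KO at this time, while the ligand-binding chain of the gamma receptor was lower. Jak2 averaged 670 ± 67.6 CPM in labelled KO and 437 ± 25.0 CPM in WT (log2 0.62 ± 0.10, adjusted p = 6.5e-05). Jak1 averaged 390 ± 28.2 and 307 ± 12.7 CPM (log2 0.34 ± 0.09, adjusted p = 0.0076). For Tyk2 the means were 193 ± 38.9 CPM in labelled KO and 150 ± 6.85 CPM in WT (log2 0.36 ± 0.11, adjusted p = 0.015), and the call was lost without labelled-KO number 2 (0.23, adjusted p = 0.13) or number 4 (0.32, adjusted p = 0.072). In bulk RNA of this kind, fewer cells of a type and less RNA per cell cannot be told apart.

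The other 2 members did not pass at 18 h. Ifnb1 averaged 8.75 ± 1.81 CPM in labelled KO and 4.87 ± 1.03 CPM in WT (ratio of depth-scaled counts 1.83, 95% counting interval 1.56 to 2.14), with a log2 fold change of 0.85 ± 0.34 and an adjusted p of 0.064 by edgeR. It passed with DESeq2 (0.89, adjusted p = 0.048) and on the 18 h libraries alone (0.86, adjusted p = 0.0074). With the replicate number as a block it also passed (1.08, adjusted p = 0.0077). That block pairs the genotypes by number, which the labels do not do, and same-numbered libraries of the genotypes at 18 h correlated at -0.05 to 0.16. Ifngr2 averaged 319 ± 12.2 CPM in labelled KO and 292 ± 8.63 CPM in WT (log2 0.13 ± 0.06, adjusted p = 0.12), and passed with DESeq2 (0.18, adjusted p = 0.0016) and with median-of-ratios factors (0.18, adjusted p = 0.028). For 7 of the 8 members, all but Tyk2, the libraries of the genotypes did not overlap at 18 h, as for 35.8% of all genes.

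**Figure D3:**
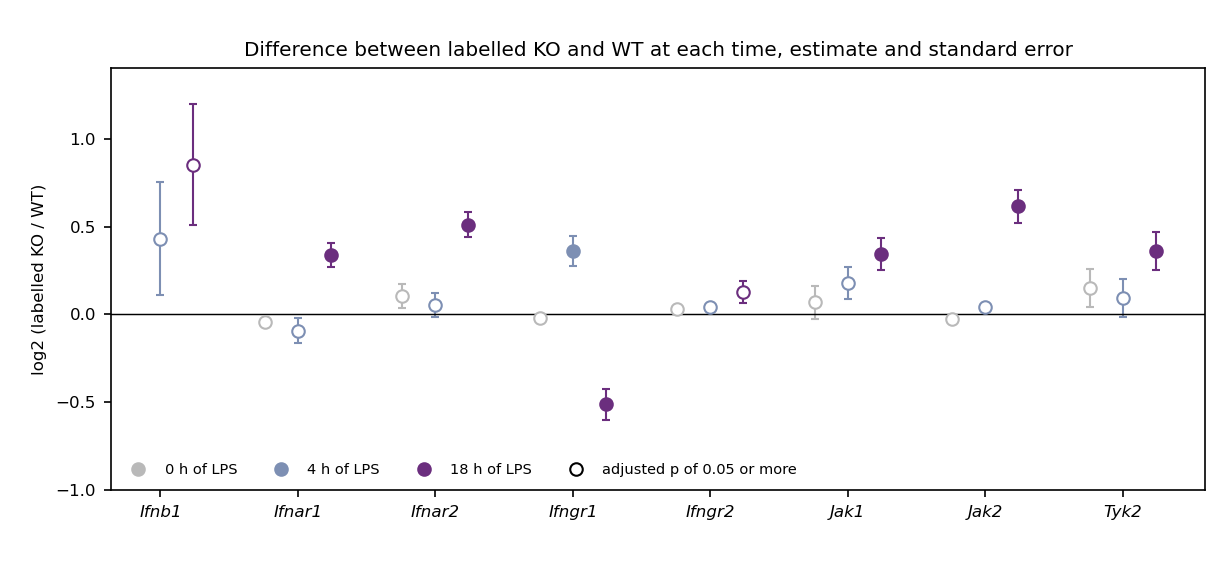
Difference between labelled KO and WT (vertical axis, edgeR log2 fold change with its standard error, positive where labelled KO was higher) for the 8 genes at 0, 4 and 18 h of LPS. Filled circles have an adjusted p under 0.05, open circles do not. Ifnb1 at 0 h is not drawn, and bars are missing where the estimate lies within 0.05 of 0. The 18 h circles of Ifnar1, Ifnar2, Jak1, Jak2 and Tyk2 are filled and above 0, and that of Ifngr1 is filled and below 0, where at 4 h it was above.

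The change with LPS itself differed between genotypes for 4 members. At 18 h against 0 h, the interaction (the log2 change in labelled KO minus that in WT) was 0.64 ± 0.14 for Jak2 (SE, edgeR adjusted p = 0.0031), 0.41 ± 0.10 for Ifnar2 (adjusted p = 0.008), 0.38 ± 0.10 for Ifnar1 (adjusted p = 0.011) and -0.49 ± 0.12 for Ifngr1 (adjusted p = 0.0088). Of all genes, 17.6% were called in this test. At 18 h against 4 h the same 4 genes were called, where 10.8% of all genes were. Of the genes called there, 57.7% had a value above 0 with TMM and 46.3% with upper-quartile factors. For Ifngr1 the interaction there was -0.87 ± 0.12 (adjusted p = 1.6e-04), and for Jak2 0.57 ± 0.14 (adjusted p = 0.009). For Ifnar1 it was 0.43 ± 0.10 (adjusted p = 0.0072) and for Ifnar2 0.46 ± 0.10 (adjusted p = 0.005). Tyk2 at 18 h against 4 h passed without labelled-KO number 3 at 18 h (0.42, adjusted p = 0.045). At 4 h against 0 h no member was called by edgeR, DESeq2 or limma-voom, against 0.798% of all genes by edgeR. The nearest, and the 1 member with an unadjusted p under 0.05, was Ifngr1 (0.38 ± 0.12, unadjusted p = 0.0049, edgeR adjusted p = 0.2).

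Summed marker RNA of other cell types differed in part between the labels, while the stromal ranges of the genotypes overlapped at each time. Such sums do not count cells. Summed stromal markers (12 genes, among them Col1a1 and Pdgfra) were at 39.1 to 773 CPM per library in labelled KO and 12.5 to 56.5 CPM in WT at 18 h, with none of the 12 at 0 in either. Summed neutrophil markers (12 genes) were at 319 to 450 CPM in labelled KO, with Mpo and Prtn3 at 0, and 183 to 267 CPM in WT, with Mpo, Elane, Prtn3 and Retnlg at 0. Lcn2, which rose with LPS, made up most of these sums, at 291 ± 57.9 CPM in labelled KO and 182 ± 39.4 CPM in WT. S100a9 was at 35.8 ± 5.41 CPM in labelled KO and 13.4 ± 1.92 CPM in WT, and S100a8 at 28.1 ± 6.94 and 9.51 ± 1.35 CPM. Ngp was at 25.1 ± 4.62 and 8.94 ± 1.39 CPM, and Ltf at 8.43 ± 2.52 and 3.46 ± 0.674 CPM. The rest averaged at most 1.61 CPM in labelled KO and 0.715 CPM in WT. Summed dendritic cell markers (10 genes, none at 0) were at 199 to 223 CPM in labelled KO and 137 to 149 CPM in WT. Tcf4 alone held 187 ± 15.0 and 132 ± 6.38 CPM of them. Xcr1 was at 16.3 ± 1.63 CPM in labelled KO and 8.25 ± 0.712 CPM in WT, and Kmo at 7.94 ± 2.84 and 1.61 ± 0.280 CPM. Flt3, Siglech, Zbtb46, Ccr9, Clec9a, Irf4 and Dpp4 averaged at most 1.17 CPM in labelled KO and 0.448 CPM in WT. At 0 h, where no member was called, stromal sums were at 123 to 220 CPM in labelled KO and 3.37 to 134 CPM in WT. Neutrophil sums were at 68.0 to 118 and 19.2 to 36.2 CPM there. Of the neutrophil markers, Lcn2, Ltf, Ngp, S100a8, S100a9, Camp and Retnlg were called higher in labelled KO at 0 h (log2 1.55 to 2.65). Their edgeR adjusted p was at most 0.037, and 3.98% of all genes were called. Stromal sums at 4 h were 39.7 to 511 CPM in labelled KO and 12.5 to 75.3 CPM in WT. Markers of T and NK cells (9 measured) summed at 18 h to at most 1.21 CPM in labelled KO and 0.397 CPM in WT. Those of B cells (7 measured) summed at 18 h to at most 4.41 and 3.25 CPM. T and NK sums at 4 h were 21.2 to 34.5 CPM in labelled KO and 14.2 to 26.7 CPM in WT. Lck held most of these, at 28.5 ± 6.82 and 19.5 ± 5.20 CPM. The part of neutrophils and dendritic cells in the 18 h differences was not tested. With the library of highest stromal sum left out of each group (labelled-KO number 4 at all times, WT number 2 at 0 h and 4 h, WT number 3 at 18 h), 3 members were called at 18 h, where 17.8% of all genes were. Ifnar2, Jak2 and Ifngr1 passed, while Ifnar1 was at 0.30 (adjusted p = 0.051), Jak1 at 0.37 (adjusted p = 0.06) and Tyk2 at 0.31 (adjusted p = 0.15), all log2 and all in the same direction as before. Between genotypes at 4 h none was called in that fit, with Ifngr1 at 0.42 (adjusted p = 0.12), against 1.13% of all genes. In the interaction at 18 h against 0 h, Jak2 was called there (0.81, adjusted p = 0.017), against 7.21% of all genes, while Ifnar1 (adjusted p = 0.13), Ifnar2 (0.086) and Ifngr1 (0.11) lost the call. In that at 18 h against 4 h, Ifnar2 (adjusted p = 0.047) and Ifngr1 (0.013) were called, against 3.51% of all genes, while Ifnar1 (0.17) and Jak2 (0.053) lost it.

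Il10rb, which lies between Ifnar2 and Ifnar1, was also higher in labelled KO at 18 h, at 478 ± 2.55 CPM against 383 ± 19.0 CPM in WT (log2 0.32, edgeR adjusted p = 4.6e-04). It differed from its neighbours in its response at 4 h against 0 h, which was 0.06 in labelled KO (adjusted p = 0.39) and 0.12 in WT (adjusted p = 0.067).

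Apart from Ifnb1, interferons were barely counted. None of 20 other interferon genes (alpha, kappa, epsilon, zeta, gamma and lambda) passed the filter on low counts. Their summed counts were 1, 40 and 6 at 0, 4 and 18 h over the labelled-KO libraries and 1, 87 and 0 over the WT libraries. Ifna5 held most of those at 4 h, with 21 counts in labelled KO and 66 in WT, of which 56 were in 1 library, WT number 1. How reads that match more than one gene were counted is not given, so these low counts are uncertain. Ifng, the ligand of Ifngr1 and Ifngr2, had 11 counts at 4 h in labelled KO and 8 in WT, and 4 and 0 at 18 h.

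The genes that lead to Ifnb1 and those downstream of its receptor were read from lists chosen with earlier results of these data known. At 4 h against 0 h, where 33.5% of all genes were called higher and 41.5% lower in labelled KO and 35.1% and 43.0% in WT, the list of Ifnb1 induction (22 genes tested) had 18 higher and 3 lower in labelled KO, and 18 higher and 4 lower in WT. Irf1, a factor that binds the Ifnb1 promoter, was at 2267 ± 211 CPM at 4 h and 81.6 ± 18.4 CPM at 0 h in labelled KO, with 1614 ± 152 and 71.7 ± 9.84 CPM in WT. Irf7, the factor that amplifies type I interferons, ran between 1207 and 1416 CPM at 4 h and between 30.7 and 94.6 CPM at 0 h in labelled KO. The WT libraries ran between 1139 and 2105 CPM at 4 h and between 29.9 and 84.1 CPM at 0 h. Tlr4, the LPS receptor, fell (log2 -0.92 in labelled KO and -1.03 in WT, edgeR adjusted p = 2.3e-05 and 6.3e-07). Irf3 fell in both genotypes (log2 -0.47 in labelled KO and -0.29 in WT, adjusted p = 0.0032 and 0.025). Traf3 was at -0.26 in labelled KO (log2, adjusted p = 0.076) and fell by 0.96 in WT (adjusted p = 7.3e-08), and this difference between genotypes had an adjusted p of 0.055 (edgeR interaction). Traf3 is an adaptor between the receptor and the kinases that activate Irf3.

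Among the STAT and Irf9 transducers, which carry the signal to the nucleus, Stat5a (log2 4.70 in labelled KO, 4.30 in WT) and Stat2 (2.87 and 3.05) rose at 4 h in each genotype and Stat6 fell. At 4 h, 33.5% of all genes were called higher and 41.5% lower in labelled KO, and 35.1% and 43.0% in WT. Among 18 inhibitors of the pathway, 13 rose and 3 fell in labelled KO, and 12 rose and 3 fell in WT. Socs3 (log2 8.50 in labelled KO, 8.79 in WT) and Socs1 (7.50 and 7.80), which block the kinases, rose most, and Sh2b3, an adaptor that restrains Jak2, fell (-1.90 and -1.95). Of 17 other receptor genes that use these kinases, 11 rose and 3 fell in both genotypes. Il15ra rose by 5.99 in labelled KO and 6.23 in WT, and Il6ra fell by 4.12 and 4.31 on the log2 scale.

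Known type I interferon targets rose throughout the list. All 28 were higher at 4 h and at 18 h than at 0 h in both genotypes, with a median log2 fold change of 4.39 in labelled KO and 4.67 in WT at 4 h, and of 4.69 and 4.40 at 18 h. Of all genes, 33.5% were called higher in labelled KO and 35.1% in WT at 4 h, and 34.5% and 34.8% at 18 h. The medians of all genes were -0.14 in labelled KO and -0.17 in WT at 4 h, and -0.08 and -0.05 at 18 h. Cxcl10, a chemokine, was at 8259 ± 268 CPM at 4 h and 20.1 ± 10.4 CPM at 0 h in labelled KO, with 8910 ± 937 and 23.2 ± 8.12 CPM in WT. Cmpk2, a nucleotide kinase, was at 11181 ± 264 CPM at 4 h in labelled KO and 11530 ± 861 CPM in WT. Of 21 interferon gamma targets tested, 19 rose in labelled KO and 20 in WT at 4 h, among them Nos2, the inducible nitric oxide synthase, and the chemokine gene Cxcl9. Irf1, Irf7, Irf8, Socs1 and Usp18 stand on more than one of these lists, and Cd14 and Fcgr1 are also macrophage markers.

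At 18 h, 16.6% of all genes were called higher and 15.6% lower in labelled KO (edgeR). In the lists, the numbers called higher and lower were 13 and 1 of 22 for Ifnb1 induction, 7 and 0 of 18 for the inhibitors, and 8 and 0 of 17 for the other receptors. For type I targets they were 11 and 1 of 28 with a median log2 fold change of 0.56, and for interferon gamma targets 15 and 0 of 21 with a median of 1.01. The median of all genes was -0.015. Which signal raised the genes of a list was not tested. Without the libraries of highest stromal sum, where 9.47% of all genes were called higher and 8.38% lower, the counts were 7 and 1, 4 and 0, 4 and 0, 6 and 0, and 9 and 0 in the same order.

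The single genes named at 18 h were among the called genes of largest change in each list, and do not stand for the rest of it. Cd14, the co-receptor that hands LPS to Tlr4, was at 924 ± 64.9 CPM in labelled KO and 458 ± 95.5 CPM in WT (log2 1.01, edgeR adjusted p = 6.6e-05). Hmga1 was at 454 ± 18.5 and 292 ± 21.2 CPM (log2 0.64), and Ticam2, the adaptor between Tlr4 and Ticam1, at 40.6 ± 3.83 and 56.7 ± 2.25 CPM (log2 -0.49, adjusted p = 5.0e-04). Stat3 averaged 442 ± 52.4 CPM in labelled KO and 263 ± 5.69 CPM in WT (log2 0.75), and Stat4 9.91 ± 1.67 and 3.96 ± 0.379 CPM (log2 1.32). Both carry signals of several cytokines. Socs1 was at 68.7 ± 26.7 CPM in labelled KO and 27.7 ± 3.05 CPM in WT (log2 1.32, adjusted p = 1.3e-04). Il13ra1 and Il15ra, receptor chains for interleukin-13 and interleukin-15, were higher by 1.47 and 1.18. Among the targets, Ifit1 was at 4326 ± 172 CPM in labelled KO and 2188 ± 160 CPM in WT (log2 0.98, adjusted p = 0.0035), Mx2 at 497 ± 106 and 244 ± 11.7 CPM (log2 1.03) and Nos2 at 723 ± 174 and 142 ± 33.7 CPM (log2 2.35, adjusted p = 3.4e-06). The one type I target that was lower, Ddx58, which encodes a sensor of viral RNA, was also lower in labelled KO at 0 h (log2 -1.73) and at 4 h (log2 -1.58).

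**Figure D4:**
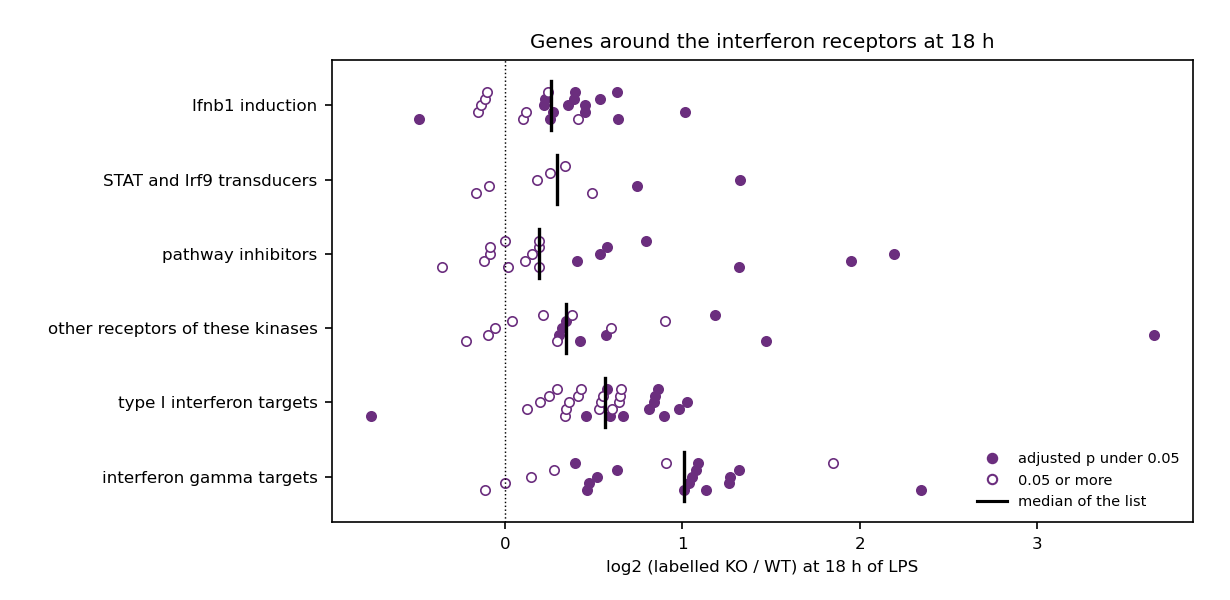
Difference between labelled KO and WT at 18 h of LPS (horizontal axis, edgeR log2 fold change, positive where labelled KO was higher) for every tested gene of 6 pathway lists (rows). Each circle is a gene, filled where the adjusted p was under 0.05, and the vertical bar is the median of the list. Filled circles lie mostly right of 0, and the interferon gamma targets have the median farthest to the right, at 1.01.

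Before LPS, where 3.98% of all genes were called between genotypes, Hmga1 (log2 -0.35, edgeR adjusted p = 0.0057) and Ddx58 were the called genes of all 6 lists. At 4 h, where 2.87% of all genes were called higher and 2.70% lower, 4 of 22 genes of Ifnb1 induction were called higher, 2 of 18 inhibitors, 0 of 17 other receptors and 3 of 21 interferon gamma targets, and Ddx58 was called lower. Irf8, a factor of the myeloid lineage, was at 1241 ± 143 CPM in labelled KO and 802 ± 47.0 CPM in WT (log2 0.63, adjusted p = 3.2e-05), Traf3 at 16.3 ± 1.69 and 11.3 ± 1.24 CPM (log2 0.55), the transducer Stat5a at 453 ± 37.1 and 338 ± 46.1 CPM (log2 0.42, adjusted p = 0.01), and the inhibitor Cish at 35.5 ± 1.21 and 16.0 ± 6.70 CPM (log2 1.14, adjusted p = 0.022).

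Genes whose pattern over the 6 group means was nearest to a member were picked by the root mean square difference of centred log2 CPM, with a prior count of 2. The prior count is added before the log and shrinks changes that start from very low counts. Ifnb1 held 1 count (labelled KO) and 3 counts (WT) at 0 h, so all its distances rest on an understated rise with LPS. Nearest to Ifnb1 were the microRNA gene Mir6381 (0.13) and Gbp2 (0.229), an interferon-induced GTPase gene, with means of 65.5, 5593 and 4398 CPM at 0, 4 and 18 h in labelled KO, against 50.1, 5112 and 2187 CPM in WT. For Jak2 they were Armcx6 (0.133) and Nfkbia (0.148), the gene of an NF-kB inhibitor, with means of 30.9, 1305 and 377 CPM in labelled KO, against 38.0, 1288 and 331 CPM in WT. Ifngr1 was nearest to Vsir (0.091), a checkpoint receptor gene at 536, 206 and 133 CPM in labelled KO and 511, 171 and 208 CPM in WT, and to Cacna1a (0.098). The pairs were Rab10os and Stx18 for Ifnar1, Cpsf7 and Epc1 for Ifnar2, Dram2 and Txndc9 for Ifngr2, Tram2 and Actg1 for Jak1, and Nfxl1 and Sh3bp5 for Tyk2, at 0.033 to 0.121. Among the members themselves Ifnar1 and Ifngr2 were the closest pair (0.086) and Ifnb1 and Ifngr1 the farthest apart (3.646).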

How the data were processed

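RNA isolation used an RNeasy kit and library preparation a KAPA mRNA HyperPrep kit, per the labels' protocols. The submitters' processing notes name CASAVA 1.8.2, HISAT2 2.1.0 and mm10. The counting tool and its use of strand were not given in the sources used here. The authors deposited one estimated count per library for each RefSeq transcript, in multiples of 0.5 and unscaled. They were rounded to whole numbers, with 0.5 going upward, before the count test, although whole-number counts had been planned for.

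Of 42361 transcripts, 42203 matched RefSeq (GRCm38.p6) and 65 GENCODE M21. The other 93 (0.232 to 2.229% of counts per library) were left out. Per gene the transcript with the highest mean was kept. Tests were edgeR 4.0.16 quasi-likelihood fits (R 4.3.3) with 6 group means on the 21 libraries together, TMM factors and edgeR's default filter, with Benjamini-Hochberg adjustment over 12529 genes and calls under 0.05. Standard errors are the log2 fold change over the square root of F, and none is given within 0.05 of 0. CPM uses TMM library sizes. Chain ratios used exact permutation tests. In simulated counts (4 h between genotypes, 12153 genes), 78 of 100 genes changed 1.5-fold and 98 of 100 changed 2-fold were recovered, with 12 false calls.

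The members, gene lists and motifs were chosen with earlier results of these data known. All members are named. A gene of the transducer list is not reported here, nor are that list's counts. From each list the text names up to 2 called genes of each sign per comparison described, those with the largest change at a mean of at least 5 CPM, and for likeness the 2 nearest genes at that level, without clone-named genes or pseudogenes. Alternatives were DESeq2 1.42.0, limma-voom (limma 3.58.1), other scalings and filters, the compared groups alone, a replicate block, summed transcripts, downward rounding, and leaving out each library. The fit without the libraries of highest stromal sum was chosen after seeing the data. Within every group, each pair of libraries differed by more than sampling noise. Same-numbered libraries deviated together between 0 h and 4 h in WT (correlations 0.23 to 0.32) and between 4 h and 18 h in labelled KO (0.1 to 0.5). Between 0 h and 4 h in labelled KO the correlations were weaker (0.02 to 0.2). In every other set of groups the lowest correlation was negative.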

Additional observations from a re-analysis of the deposited data

Results flagged for a closer look

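The change with LPS differed between genotypes for 4 genes by a test of the difference itself (edgeR interaction, log2 change in labelled KO minus that in WT). At 18 h against 0 h the differences were 0.38 for Ifnar1, 0.41 for Ifnar2, -0.49 for Ifngr1 and 0.64 for Jak2. At 18 h against 4 h they were 0.43 for Ifnar1, 0.46 for Ifnar2, -0.87 for Ifngr1 and 0.57 for Jak2. Both sets share the 18 h libraries. Without the libraries of highest stromal sum, Ifnar1, Ifnar2 and Ifngr1 lost the call at 18 h against 0 h, and Ifnar1 and Jak2 lost it at 18 h against 4 h. Ifngr2 in WT number 1 at 4 h was at 302 CPM. The other 3 WT libraries of that time lay above it and close together, at 332 to 336 CPM. Of 24 groups of 4 libraries looked at in this way 1 stood out, and chance gives about 1 in 20. In the same library Ifnb1 was at 23.8 CPM (the others 5.44 to 10.0) and Jak1 at 784 CPM (the others 1032 to 1122). Ifngr1 was at 69.8 CPM there (the others 88.7 to 95.8), and none of these was flagged.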

How the results depend on the processing

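Over 32 alternative settings of the 96 gene results, 1836 of 1895 values kept direction and side of the threshold, 28 lost a call, 14 gained one and 17 changed sign, all of these uncalled. The library with the highest stromal sum left out of each group had the widest effect: the members called between genotypes were 0 at 4 h and 3 at 18 h, and in the interactions 1 at 18 h against 0 h and 2 at 18 h against 4 h. That fit holds 15 libraries, and the part of the smaller number in the lost calls was not tested. On the 4 h libraries alone 0 members were called between genotypes. With single libraries left out, the members called ranged from 0 to 2 between genotypes at 4 h and from 3 to 5 in labelled KO at 18 h against 4 h.

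Small differences changed sign. With upper-quartile factors Ifnar2 and Ifngr2 in labelled KO at 18 h against 4 h were at 0.014 and 0.034, and Jak1 in labelled KO at 18 h against 0 h at -0.13. Without a filter on low counts Ifngr2 in the interaction at 4 h against 0 h was at -0.0027. Ifnar2 between genotypes at 4 h was at -0.030 without the stromal-high libraries and -0.0062 to 0.096 with single libraries left out. With single libraries left out, Ifnb1 in the interaction at 18 h against 4 h ranged from -0.17 to 0.64, Ifngr1 from -0.049 to 0.0012 between genotypes at 0 h and from -0.012 to 0.13 in WT at 18 h against 4 h, and Jak2 from -0.10 to 0.043 between genotypes at 0 h. In the interaction at 4 h against 0 h, Ifngr2 ranged from -0.023 to 0.049, Jak2 from -0.0098 to 0.14 and Tyk2 from -0.16 to 0.028.

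With the replicate number as a block (replicate block), 94 of the 96 gene results were unaffected in call and direction. Ifnb1 between genotypes at 18 h (1.08, edgeR adjusted p = 0.0077) and Jak1 in WT at 18 h against 0 h (-0.18, adjusted p = 0.049) passed the threshold. Same-numbered libraries of different genotypes correlated at -0.34 to 0.16 at the same time. Depth limits Ifnb1, with 1 and 3 counts at 0 h.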
